A study of Rattus norvegicus with 23 samples.

Results

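The genes described here are the 200 whose read share varied least among 23 rat livers, out of 4610 genes with a mean of at least 20 CPM (counts scaled to a common library total) and 18056 genes in the deposited table. They were chosen from the measured values: CPM was the count as a share of the library's total, and the coefficient of variation (CV, the SD divided by the mean) of each gene was taken over all 23 libraries. Every library is poly(A)-selected liver RNA of a rat aged about 48 days after birth. The 4 groups were female and male offspring of dams that breathed filtered air (female air, n = 6; male air, n = 6) or 0.8 ppm ozone on gestation days 5 and 6 (female ozone, n = 6; male ozone, n = 5). The labels give no strain and tie no animal to a dam, so littermates could not be recognised and p-values treat the animals as independent. They also describe repeated exposures of some rats in ozone or air chambers, but not of which ones. Each of the 23 library names, those of both maternal exposures, holds an ozone entry of 0 ppm.

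Genes of steady level are used as a yardstick for others. Many belong to the housekeeping machinery that every cell needs, such as protein synthesis, protein breakdown, RNA splicing and vesicle transport, whereas liver genes of drug and steroid metabolism in the rat are known to differ between the sexes under the pattern of growth hormone release. A steady read share is not the same as a steady amount of RNA per cell, because CPM expresses each gene relative to all others, and in bulk liver fewer cells of a type and less RNA per cell cannot be told apart. The table gives Ensembl identifiers without names. The gene table at hand (RefSeq, assembly GRCr8) paired 0 of them with a symbol, so no function is stated for any member, the hepatocyte markers could not be looked up, and the gene lists set for this work were not counted.

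The members' CV ran from 5.47% to 10.0% with a median of 8.98%, against a median of 20.7% over all 4610 genes. These values made the choice and are a description. The last 2 genes inside the limit had a CV of 9.98% and 10.0%, and the first 2 outside it had 10.01% and 10.01%, so the limit falls in a continuous range. For 174 of the 200 members the highest library was at most 1.5 times the lowest, which held for 290 of the 4610 genes, and the largest such ratio of a member was 1.59.

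**Figure D1:**
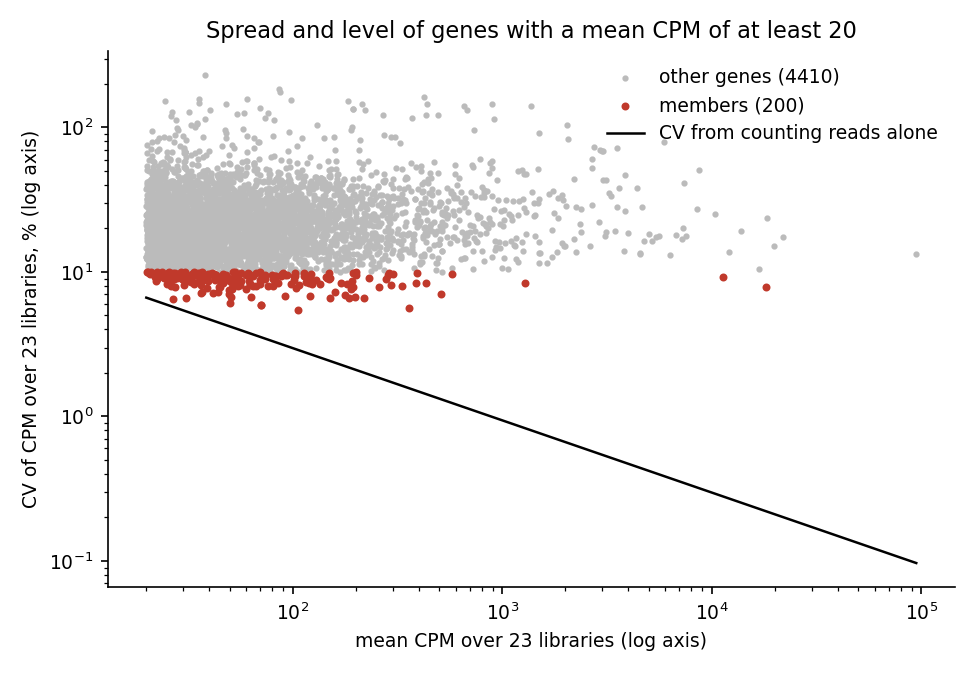
Each point is a gene with a mean CPM of at least 20; the x axis is its mean CPM and the y axis its CV over 23 libraries in %, both on log axes. The 200 members (red) lie between 5.47% and 10.0%, with levels up to 18144 CPM, and the line gives the CV that counting reads alone would produce.

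The steadiest gene was ENSRNOG00000013360, with a CV of 5.47% around a mean of 106 CPM. Its lowest, median and highest values were 95.1, 101 and 108 CPM in female air, 101, 105 and 119 CPM in male air and 101, 105 and 112 CPM in female ozone livers. The 5 male ozone livers had 111, 108, 116, 114 and 102 CPM. All 4 groups overlapped, and the highest of all was male air replicate 4. ENSRNOG00000019724 had a CV of 5.67% around 358 CPM. Its lowest, median and highest values were 338, 365 and 383 CPM in female air, 330, 366 and 390 CPM in male air and 328, 341 and 375 CPM in female ozone livers, and the male ozone livers had 326, 355, 360, 395 and 364 CPM. Both the lowest and the highest liver for this gene were ozone males, and again every group overlapped the others. The third, ENSRNOG00000017023, had a CV of 5.91% around 70.8 CPM. It spanned 65.6 to 76.9 CPM in female air, 67.0 to 76.0 CPM in male air and 61.6 to 72.3 CPM in female ozone livers, with medians of 71.1, 74.4 and 67.0 CPM. The 5 ozone males were closest together, at 69.7, 72.3, 73.2, 70.2 and 71.1 CPM. These 3 identifiers stayed among the 200 under all 34 alternative ways of choosing.

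The member with the most reads was ENSRNOG00000003119, with a mean of 18144 CPM and a CV of 7.89%. The lowest, median and highest values were 15551, 17009 and 18455 CPM in female air, 17844, 19603 and 20412 CPM in male air and 17032, 18286 and 18700 CPM in female ozone livers. Male ozone livers had 15893, 20536, 17186, 19044 and 17402 CPM. Air males were on average above air females, 19501 ± 976 against 16989 ± 1107 CPM (SD, n = 6 and 6), with an overlap of their ranges, and the spread was widest among ozone males (SD 1801, n = 5). The fitted female minus male difference in air offspring was −0.18 on the log2 scale (SE 0.09) and did not pass the threshold (edgeR adjusted p = 0.121).

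**Figure D2:**
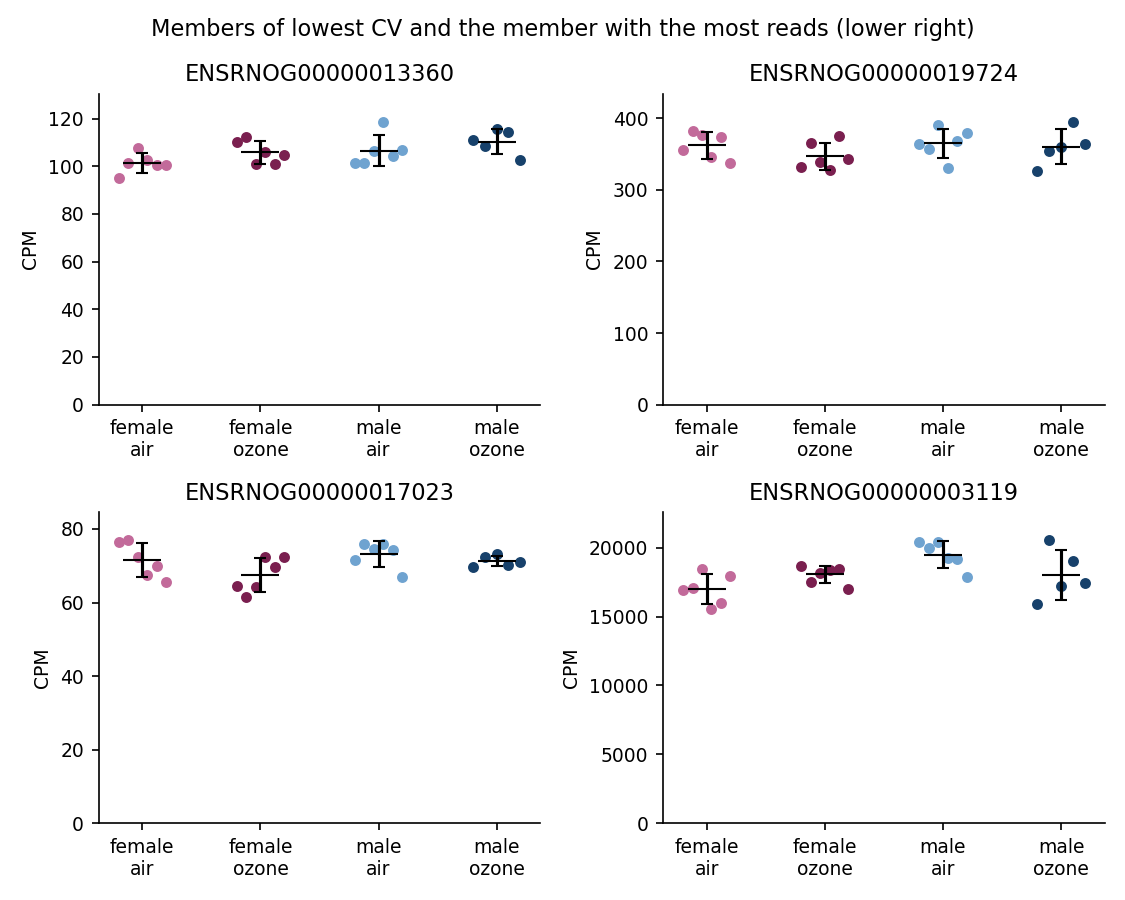
CPM by group for the 3 members of lowest CV and, at lower right, the member with the most reads; each point is 1 library, the bar is the group mean and the whiskers are 1 SD, and all axes start at 0. The ranges of all 4 groups overlap for ENSRNOG00000013360, ENSRNOG00000019724, ENSRNOG00000017023 and ENSRNOG00000003119.

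The members came from low and high levels of reads, though not evenly. Their mean CPM had a median of 51.6 (quartiles 33.6 and 103), and that of all 4610 genes 48.7 (quartiles 30.2 and 102). CPM is not corrected for transcript length, so this compares reads and not molecules. Of the members 92 had a mean below 50 CPM, 90 lay from 50 up to 200 CPM and 18 at 200 CPM or more, or 46%, 45% and 9% of them; over the 4610 genes the shares were 51.2%, 36.3% and 12.5%. With the 4610 genes ranked by level and divided into 4 equal bins, the bins from low to high held 39, 50, 60 and 51 members.

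Counting reads sets a floor under every CV. For the members this floor had a median of 4.14%, and it made up a median of 22.6% of the variance, against 3.63% over all 4610 genes. The share was 41.2% (median) for members in the lowest bin of level and 7.35% in the highest. In 6 members counting made up more than 50% of the variance. No other gene of the 4610 could reach this, since the others had a CV above 10.0% and the floor was at most 6.64%. A low CV makes the floor a larger share of the variance, so the members' larger share was built into the choice. With the floor removed, the members' remaining CV had a median of 7.75% and a lowest value of 2.97%. When the 200 genes were chosen by this remaining CV, 168 of the members were chosen again.

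Group means of the members lay close together. The highest group mean was a median of 1.105 times the lowest (at most 1.22 times), against 1.38 times over the 4610 genes, and the 4 means lay within 1.1 times of each other for 92 members (46%) and for 239 of the 4610 genes (5.18%). Membership in the 4 groups accounted for a median of 19.7% of a member's variance in log2(CPM + 1), against 42.2% over the 4610 genes. Sex alone accounted for 5.80% against 18.6%, and maternal exposure for 2.12% against 1.75%. These shares are not corrected for the number of groups, so a gene without a true group difference would also show some. The rule limits the sum of all these parts, so smaller group differences were built into the choice. The highest group mean was that of female air in 67 members, male air in 60, male ozone in 46 and female ozone in 27, or 33.5%, 30.0%, 23.0% and 13.5% of them. Over the 4610 genes the shares were 39.3%, 32.2%, 16.9% and 11.6%, in the same order.

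The sexes were compared in air offspring to see how many steady genes still carried a sex difference. Of the 200 members 15 passed the threshold (edgeR's quasi-likelihood fit, p adjusted over 12792 genes after Benjamini and Hochberg, threshold 0.05, n = 6 and 6), 8 of them higher in females and 7 higher in males. In this comparison 48.3% of all genes tested were called, 23.8% higher and 24.6% lower in females; of the 4610 genes 58.5% were called. Since the rule held down the spread over the same libraries, nothing is read from the smaller share. The 15 differences were small, with a median size of 0.24 on the log2 scale, and the smallest of them, 0.19, was also the smallest difference called in any gene. The median size over all 200 members was 0.09, over the 4610 genes 0.40 and over all genes tested 0.43. The median standard error was 0.09 for members and 0.14 for the 4610 genes.

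The largest differences toward females were seen in ENSRNOG00000009244 and ENSRNOG00000003858. ENSRNOG00000009244 had 32.2 to 39.2 CPM in female air livers (median 34.5) and 26.5 to 32.0 CPM in male air livers (median 28.6). These ranges did not overlap, and the fitted difference was 0.27 (log2, SE 0.08, edgeR adjusted p = 0.0106). In ozone offspring its levels met: females had 31.4, 33.1 and 37.2 CPM (lowest, median and highest), and males 33.4, 37.2, 33.0, 33.6 and 35.7 CPM. ENSRNOG00000003858 had 91.2 to 111 CPM in female air (median 105) and 81.9 to 93.6 CPM in male air livers (median 86.6), which overlapped. Its difference was 0.24 (log2, SE 0.08, edgeR adjusted p = 0.0154); ozone females had 85.1 to 107 CPM (median 98.0), and ozone males 87.7, 85.8, 95.6, 81.8 and 90.7 CPM.

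The largest differences toward males were those of ENSRNOG00000007316 and ENSRNOG00000029501. ENSRNOG00000007316 had 46.1 to 53.2 CPM in female air livers (median 48.0) and 55.0 to 64.9 CPM in male air livers (median 59.0), without overlap, a difference of −0.29 (log2 female minus male, SE 0.08, edgeR adjusted p = 0.00616). Ozone males lay lower, at 56.9, 46.6, 51.4, 52.1 and 44.8 CPM, and ozone females at 50.4, 55.0 and 55.8 CPM (lowest, median and highest). ENSRNOG00000029501 had 118 to 140 CPM in female air (median 127) and 144 to 168 CPM in male air livers (median 157), again apart, a difference of −0.28 (log2, SE 0.09, edgeR adjusted p = 0.0094). In ozone livers it had 134, 141 and 160 CPM in females (lowest, median and highest) and 151, 156, 143, 162 and 140 CPM in males, which overlapped. None of these 4 calls was lost when any single library was left out. Within style 1 of the library names, described below, ENSRNOG00000009244 kept its call (0.36, edgeR adjusted p = 0.0204), while ENSRNOG00000003858 (0.24, adjusted p = 0.126), ENSRNOG00000007316 (−0.26, adjusted p = 0.0951) and ENSRNOG00000029501 (−0.29, adjusted p = 0.0567) lost it. Scaling by the members' summed counts also ended the calls of ENSRNOG00000007316 (−0.20, adjusted p = 0.0724) and ENSRNOG00000029501 (−0.18, adjusted p = 0.065).

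The count of 15 moved with the scaling and the libraries. Total counts in place of the trimmed mean of M-values (TMM) scaling gave 5 higher and 8 lower, scaling by the members' own summed counts gave 28 higher and 0 lower, and scaling by that sum without ENSRNOG00000003119 gave 14 and 2. Of all 12792 genes these fits called 6135, 6099 and 6061, with 2995, 3619 and 3278 of them higher in females. Library names came in 2 styles whose meaning the labels do not give. Style 1 held 5 air females, 3 air males, 1 ozone female and 4 ozone males, and style 2 held 1, 3, 5 and 1 of these. Within style 1 alone (5 female and 3 male air livers) 1 member was called, of 4584 of 12706 genes, and style 2 held only 1 female air liver, too few for a value. Without female air replicate 2 the count was 9, with 40.9% of all genes called.

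**Figure D3:**
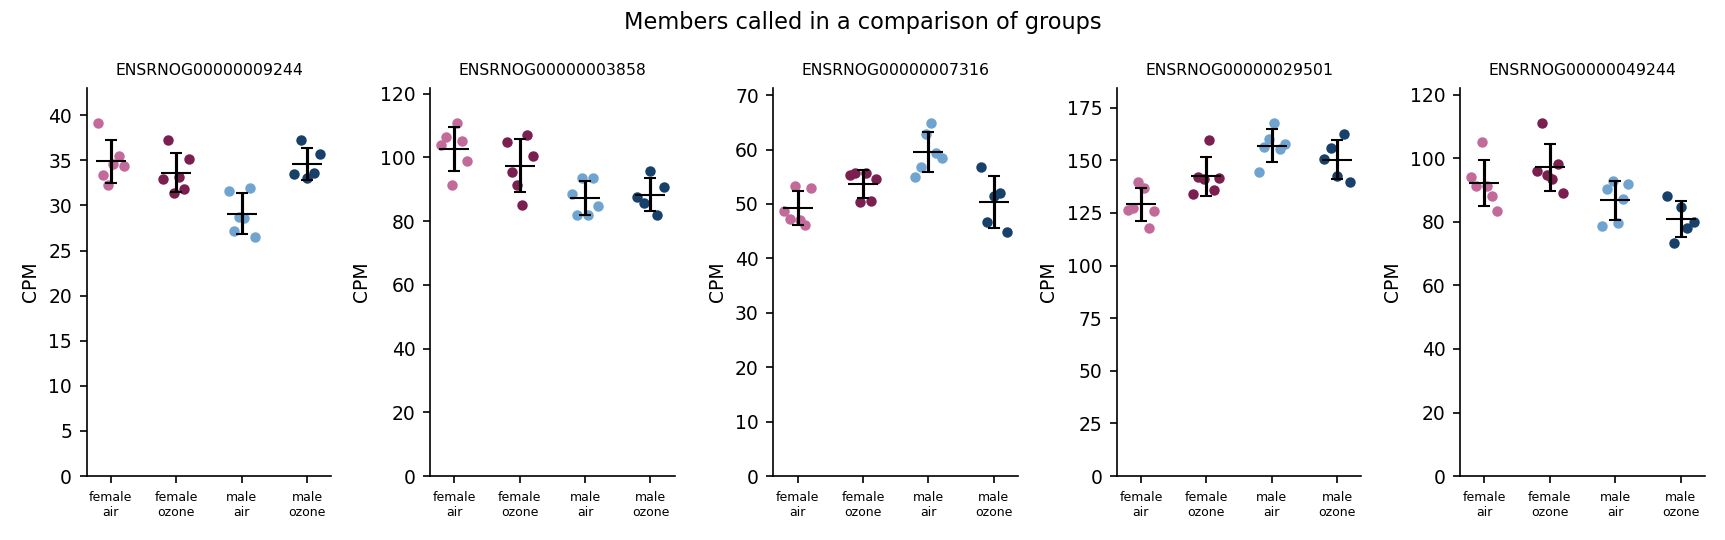
CPM by group for the 5 members named in the comparisons of groups; each point is 1 library, the bar is the group mean, the whiskers are 1 SD and the axes start at 0. Air females and air males are apart for ENSRNOG00000009244, ENSRNOG00000007316 and ENSRNOG00000029501, and ozone females and ozone males for ENSRNOG00000049244.

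In ozone offspring 1 member differed between the sexes (edgeR adjusted p below 0.05, n = 6 and 5; 6.07% of all genes were called). It was ENSRNOG00000049244, a gene named after its values were seen. Ozone females had 89.1 to 111 CPM (median 95.4), and ozone males had 88.1, 73.5, 84.6, 78.0 and 80.0 CPM. The ranges did not overlap, and the fitted difference was 0.35 (log2, SE 0.09, edgeR adjusted p = 0.0135). In air offspring the same gene had 83.4 to 105 CPM in females (median 91.4) and 78.7 to 92.8 CPM in males (median 88.7), with a difference of 0.04 (SE 0.08, edgeR adjusted p = 0.694). The interaction, given as the ozone effect in males minus that in females, was −0.31 (SE 0.12) and did not pass the threshold (edgeR adjusted p = 0.0873). The call was lost without female ozone replicate 2 or male ozone replicate 2 (edgeR adjusted p 0.0568 to 0.0685) and when ozone livers were fitted alone (0.20). Of the 6 ozone females 5 were of name style 2, and of the 5 ozone males 4 were of style 1. Sex and style thus largely coincided in ozone livers. Without the style term in the fit the difference was 0.27 (edgeR adjusted p = 0.0409).

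The 15 members with a sex call in air offspring were followed in ozone offspring, which are other animals. Of these 15, 6 kept the direction of the difference and 0 were called; the median size was 0.24 in air and 0.06 in ozone offspring, and it was smaller in ozone offspring for all 15. Among the 2699 of the 4610 genes with a sex call in air, 60.8% kept the direction, 277 were called, and the median size was 0.62 in air and 0.16 in ozone offspring. The genes were picked by their difference in air livers, so a smaller size elsewhere is partly built into the choice and no test is given. Over all 200 members the direction was the same for 100. Whether the members' sex differences changed with exposure was tested only by the interaction below.

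Maternal ozone was compared with air within each sex. In males 1 member changed (edgeR adjusted p below 0.05, n = 5 and 6; 13% of all genes were called). This was ENSRNOG00000009244, with the 6 air males at 26.5 to 32.0 CPM and the 5 ozone males at 33.0 to 37.2 CPM, ranges that did not overlap. It rose by 0.27 on the log2 scale (SE 0.09, edgeR adjusted p = 0.0396). These air males also set its sex difference, so the 2 calls share a control. Leaving out air male 2, 3, 4 or 6 or ozone male 1, 2, 3 or 5 ended the call (edgeR adjusted p 0.0607 to 0.179), and within style 1 the difference was 0.31 (adjusted p = 0.12). Without male ozone replicate 2 the share of all genes called fell from 13% to 0.837%, and without male ozone replicate 4 it was 24.3%. Over all 200 members the median change in males was 0.00 and the median size 0.07, against 0.25 for the 4610 genes. The rule limited the spread over these same livers, so a smaller size was built into the choice.

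In females no member passed (edgeR, 0 of 200; 0% of all genes were called, n = 6 and 6). Of the 6 air females 5 were of name style 1, and of the 6 ozone females 5 were of style 2. Exposure and style thus largely coincided in females. Without the style term in the fit, 0 members and 0 of all genes were called. At an unadjusted p below 0.05 there were 3 members and 1293 of all genes. The smallest adjusted p of a member was 0.492. DESeq2 and limma voom called 0 members each, and DESeq2 called 4 of all genes. The median size over the 200 members was 0.06 in the edgeR fit, against 0.16 for the 4610 genes, and here too a smaller size was built into the choice. The fitted change in females lay between −0.24 and 0.20 for every member, with a median standard error of 0.10.

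Whether ozone acted unequally on males and females was tested by the interaction, called in 1 member (edgeR adjusted p below 0.05; 10.6% of all genes were called). It was ENSRNOG00000007316, at −0.41 on the log2 scale (male minus female ozone effect, SE 0.13, edgeR adjusted p = 0.0492). In males the ozone effect was −0.25 (SE 0.09, adjusted p = 0.0581) and in females 0.17 (SE 0.09, adjusted p = 0.524), neither of them past the threshold. The interaction call sat at the limit: it held without female air replicate 3 or 6, male air replicate 1, female ozone replicate 6 or male ozone replicate 4, and was lost without any of the other 18 libraries (edgeR adjusted p 0.05004 to 0.131). ENSRNOG00000009244 had an interaction of 0.34 (SE 0.13, edgeR adjusted p = 0.0845). Of the 200 members, 184 were called in none of the 5 comparisons, 14 in 1 and 2 in 2. Of all genes tested 48.7% were called in none, 32.3% in 1 and 11.3% in 2, and of the 4610 genes 37.7%, 36.3% and 14.3%; the rule used these libraries, so nothing is read from the members' counts.

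**Figure D4:**
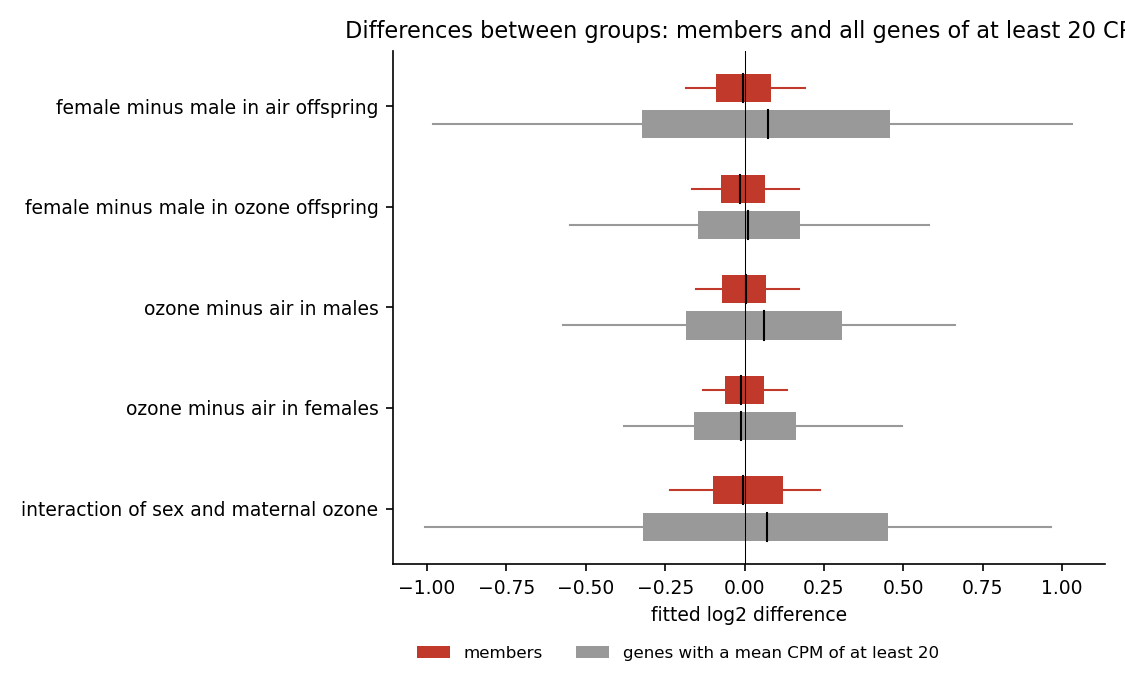
Fitted log2 differences in the 5 comparisons for the 200 members (red) and all 4610 genes with a mean CPM of at least 20 (grey); boxes span the quartiles, the black line is the median and the thin lines run from percentile 5 to 95. The rule chose members for a low spread over the same libraries, and their median sizes are 0.06 to 0.11 against 0.16 to 0.40 for the 4610 genes.

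Steadiness was next examined in libraries that a choice had not used. When the 200 genes of lowest CV were chosen in the 12 air livers, their median CV was 8.16% there and 10.4% in the 11 ozone livers, where all genes of at least 20 CPM had 18.6%. Chosen in the ozone livers, they had 7.63% there and 11.3% in the air livers, where all genes had 21.8%. The chosen genes thus varied more in the livers not used for the choice, and less than most genes there. Of the 197 genes chosen in air that also reached 20 CPM in ozone livers, 158 (80.2%) were among the 25% of genes with the lowest CV there. In the opposite direction 158 of 200 were (79.0%).

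The same held between the sexes and between the name styles. Genes chosen in females had a median CV of 9.99% in males (all genes 18.1%), and genes chosen in males 10.1% in females (all genes 17.7%). Among the steadiest 25% were 170 of 200 (85.0%) and 157 of the 197 that reached 20 CPM in females (79.7%). Genes chosen in style 1 had 10.0% in style 2 (all genes 20.9%), and those chosen in style 2 had 10.1% in style 1 (all genes 19.99%), with 178 among the steadiest 25% either way, 89.4% of those that reached 20 CPM there (1 gene did not). The exact lists were less stable than this property. The air and ozone choices of 200 shared 54 genes, those of the sexes 57 and those of the styles 76. Of the 200 members, 129 were also chosen in air livers alone, 106 in ozone, 112 in female and 97 in male livers. The choice of the members had used all of these livers, so this overlap is partly built in and is a description. The steadiness of the 200 members themselves was not tested in livers outside their choice.

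**Figure D5:**
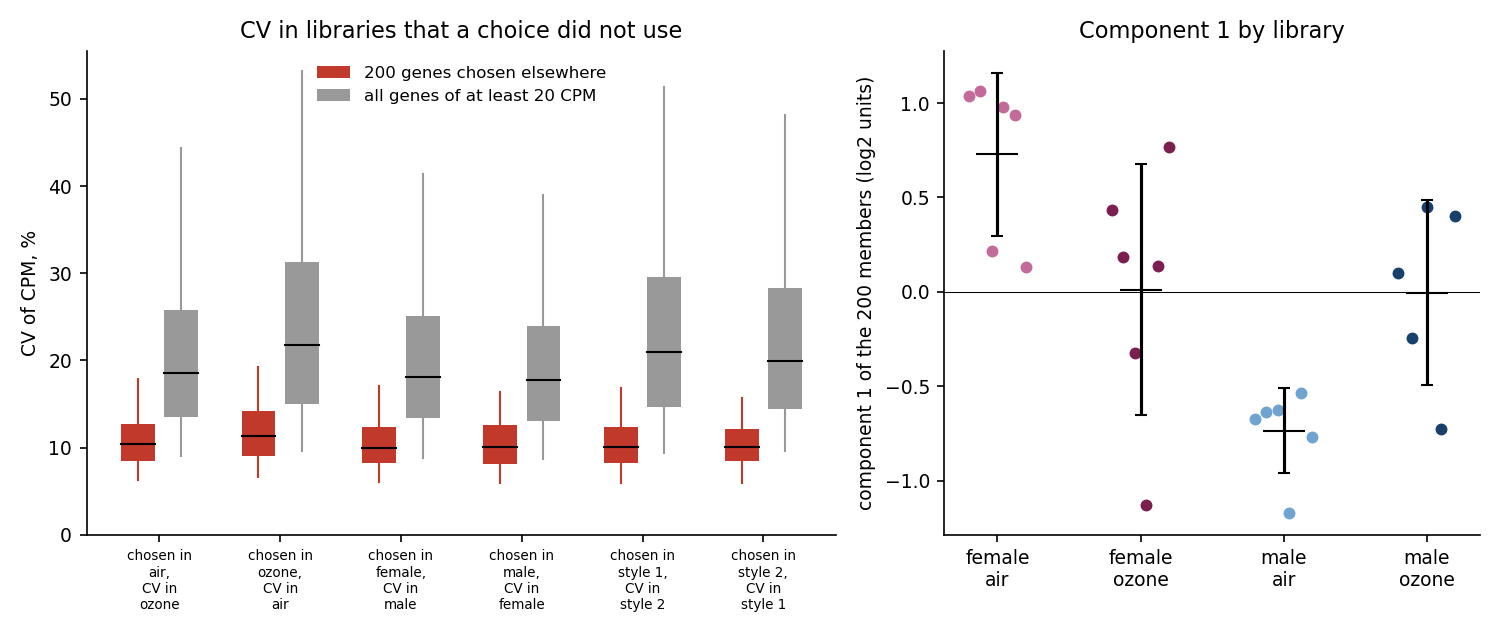
Left, CV in % of 200 genes in libraries not used to choose them (red) and of all genes of at least 20 CPM there (grey), with boxes for quartiles, a black line for the median and thin lines from percentile 5 to 95; chosen genes have medians of 9.99% to 11.3% against 17.7% to 21.8%. Right, the score of each library on component 1 of the 200 members with the group mean and SD. The sign of the component was set so that females score higher on average, and all air females lie above 0 and all air males below it.

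Common variation among the members is limited by the rule, since a gene that follows a large shared component has a large CV, and counting made up more of their variance; the values that follow are a description. In a principal component analysis of their log2(CPM + 1), component 1 held 15.6% of the variance and component 2 10.6%, while component 1 of the other 4410 genes held 59.3%. Pairs of members had a median correlation of 0.07 over the 23 libraries (quartiles −0.11 and 0.25), and 4.97% of pairs exceeded 0.5 in size, against 35.0% of pairs of the other genes, whose median correlation was 0.03 (quartiles −0.35 and 0.40). All points of these correlations share the libraries and their totals.

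Component 1 of the members nevertheless separated the sexes in air offspring. Its sign is arbitrary and was set so that females scored higher on average. Scores were 0.13 to 1.06 in female air and −1.17 to −0.54 in male air livers, with no overlap. Ozone livers of both sexes spread around 0: females scored −1.13 to 0.77 (median 0.16), and males 0.10, −0.25, 0.45, −0.73 and 0.40. The mean was 0.73 ± 0.43 for air females, −0.74 ± 0.23 for air males, 0.01 ± 0.66 for ozone females and −0.00499 ± 0.49 for ozone males (SD, n = 6, 6, 6 and 5). The component was computed from the same values as the choice, so this order is a description.

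The deviation of each liver was held down by the choice of the genes over these same livers, and is given as a description. The mean absolute log2 deviation of the 200 members from their own means ran from 0.08 in female ozone replicate 6 to 0.11 in female air replicate 1. Over the other 4410 genes the same measure ran from 0.22 to 0.42. Total counts of the libraries ran from 8000498 to 15594817, and the 10 genes with the most reads took 22.3% to 26.04% of a library. The term for the name style called 0 members (edgeR; 2 had an unadjusted p below 0.05) and 3 of all 12792 genes, or 0.0235%.

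Together the 200 members took 4.37% to 5.17% of all counts. Their summed share was 4.61% ± 0.18 for air females, 4.96% ± 0.16 for air males, 4.65% ± 0.07 for ozone females and 4.86% ± 0.23 for ozone males (SD, n = 6, 6, 6 and 5). ENSRNOG00000003119 alone carried much of this sum. Without it the sum was 29151 ± 919 CPM for air females, 30057 ± 1186 for air males, 28492 ± 428 for ozone females and 30574 ± 841 CPM for ozone males. Air males overlapped air females in both sums. Ozone males overlapped ozone females in the whole sum, and lay above them once ENSRNOG00000003119 was left out, at 29149 to 31284 against 27807 to 28904 CPM. These sums are of genes chosen over the same libraries and are a description.

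A set of steady genes can serve to scale libraries. Relative scaling factors from the members' sum ran from 0.918 to 1.09, and TMM factors from 0.941 to 1.05. The members were chosen for a steady share of the totals of these same libraries. A narrow range of their factors is therefore partly built into the choice, and the factors are a description. On the members' sum the group means were 0.969 for air females, 1.04 for air males, 0.977 for ozone females and 1.02 for ozone males, where TMM gave 1.01, 1.001, 0.993 and 0.998. Factors from the median ratio of the members, in which each gene has equal weight, had group means of 1.01, 1.004, 0.988 and 1.001 in the same order. The sum and the median ratio of the same genes thus placed the sexes differently. Scaling by the sum moved the median female minus male difference of all genes in air offspring by 0.10 (log2), and of the 6099 genes then called 3619 were higher in females, against 3042 of 6183 with TMM. The median difference over the 200 members was 0.10 after scaling by the sum and −0.00370 with TMM, so their 28 calls toward females under that scaling stand beside a shift of like size in all genes.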

How the data were processed

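Estimated counts per gene were deposited by the authors as 1 table of 23 libraries; per the submitters' processing notes the build was rn6 and the tools named are Partek, STAR 2.6.1d and DESeq2. For annotation and read counting, settings were not given in the sources used here. The counts were deposited under a name that gives the Partek E/M model as the way of counting. Of the deposited values 19.8% were not whole (tolerance 1e-06). This touched 85 of the 200 members (42.5%) and 46.5% of the 4610 genes, and none of the 9 members named. For 1 gene, the 13 largest values are given to 3 significant digits, which makes those totals approximate.

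Counts were rounded and tested with edgeR 4.0.16 in R 4.3.3: filterByExpr (12792 genes, all 200 members among them), TMM factors, quasi-likelihood fit with 4 group means and a library-name style term (18 residual degrees of freedom), Benjamini-Hochberg adjustment over all genes, threshold 0.05. CV and CPM used Python 3.11.15. Both programs were tested on simulated counts. The 55 pairs of libraries of the same group differed by a chi-square of at least 12.7 per degree of freedom, so none of these pairs was a copy. Pairs across groups were not compared. The members and lists were chosen with earlier results of these data known. Named were the 3 members of lowest CV, the 1 with the most reads, and the 2 largest differences each way between the sexes in air offspring; ENSRNOG00000049244 was named after its values were seen. The lowest library total over all genes was 8000498, and the genes kept for the fits held 99.9% of the counts of all libraries together. Standard errors are derived from the quasi-likelihood F statistic. DESeq2 1.42.0 and limma 3.58.1 were alternatives.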

Additional observations from a re-analysis of the deposited data

Results flagged for a closer look

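In 4 of the 52 sets of group values that were searched, 1 animal lay far from the others; chance gives about 1 in 20. Male ozone replicate 2 had a total count of 14098393, with the next ozone male at 11272214. On component 1 of the members male air replicate 4 lay lowest, at −1.17, with the next air male at −0.77. The same animal had the highest level of ENSRNOG00000013360 among air males, 119 CPM with the next at 107 CPM. For ENSRNOG00000029501, female ozone replicate 4 had 160 CPM, with the next ozone female at 142 CPM. The ozone effect on ENSRNOG00000007316 differed between the sexes by −0.41 on the log2 scale (edgeR interaction term, adjusted p = 0.0492, 0.0181 to 0.131 over 30 alternatives, DESeq2 and limma voom among them).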

How the results depend on the processing

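Of the 34 alternative choices of the 200 genes, 7 changed the number of shared members by more than 1.5 times. Air, ozone, female and male livers alone shared 129, 106, 112 and 97, and name styles 1 and 2 alone 129 and 122. A minimum of 50 CPM shared 108. That number was fixed in advance, since this minimum shuts out the 92 members below 50 CPM and keeps the rest. Leaving out 1 library kept 168 to 190 members, and 160 were chosen without any single library. In all 34, which include the minimum of 50 CPM, 18 were chosen. The share of genes among the steadiest 25% elsewhere was 72.4% with 400 genes chosen in air, 78.5% with 400 chosen in females, 86.6% with 100 chosen in males and 93.9% with 100 chosen in style 1. For the sexes in air offspring (15 members) DESeq2 called 23, scaling by the members' sum 28, name style 1 alone 1 and the compared groups alone 7. Of all genes these fits called 49.5%, 47.7%, 36.1% and 49.4%, against 48.3% in the fit described above. For the sexes in ozone offspring (1) scaling by the sum without ENSRNOG00000003119, chosen after seeing the data, called 2 and the compared groups alone 0. These fits called 6.54% and 2.78% of all genes, against 6.07%. For ozone in males (1) DESeq2 called 5, the fit without the name style term 3, column totals 2, and the fits without a filter, scaled by the members' sum or within style 1 called 0. Among all genes the shares called were 17.6%, 16.7%, 12.3%, 7.37%, 11.3% and 2.12% in that order, against 13%. For the interaction (1) DESeq2 called 5, and limma voom, no filter and scaling by the members' sum called 0. Their shares of all genes called were 16.3%, 8.82%, 4.91% and 7.40%, against 10.6%. Leaving out 1 library gave 9 to 18, 0 to 1, 0 to 2 and 0 to 1 members in these 4 comparisons and 0 in females throughout. The share of all genes called ran from 40.9% to 50.2%, 3.02% to 6.62%, 0.837% to 24.3% and 0% to 21.2% in the same order. The causes were not tested. None of the 7 called differences of the 5 members named in the group comparisons reversed in the alternatives run on them. No paired analysis was possible because rat numbers are not shared between groups. Depth limits the members of low level most, where counting alone gave 41.2% of the variance (median of the lowest bin).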
